A study of Mus musculus with 6 samples.

Results

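Rad21-deficient macrophages stimulated with LPS for 8 h were compared with Rad21-deficient macrophages stimulated for 2 h, over every gene of a single-cell count matrix. The members were all cells whose names carried the Rad21 genotype and either time point, less the wells with more than 25000 UMIs (unique molecular identifiers, each marking 1 captured transcript). This rule kept 406 of the 1362 cells of the series, 184 at 2 h and 222 at 8 h. MARS-seq, a plate-based method for single sorted cells, had been applied to mouse bone marrow-derived macrophages of 2 genotypes that were untreated or stimulated with 10 ng/ml LPS for 2 or 8 h, which gave 6 samples. Both genotypes were homozygous for creERT2 at the Rosa26 locus, a Cre recombinase that enters the nucleus on exposure to 4-hydroxytamoxifen, and both had received 200 nM of 4-hydroxytamoxifen in L929-conditioned medium before LPS, the wild-type (WT) cultures included. The Rad21-/- cultures came from mice with floxed Rad21 alleles, so that Rad21 was deleted in culture and all cells had differentiated from marrow with Rad21 intact.

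RAD21 is a subunit of cohesin, the ring complex that extrudes chromatin loops and holds sister chromatids together, and macrophages that do not divide can be kept without it for days. LPS is a bacterial cell wall component sensed by TLR4, which activates NF-κB and, through IRF3, the interferon-β gene. The first transcripts to appear encode immediate-early transcription factors, cytokines and feedback inhibitors, and many of them carry sequences that make the mRNA short-lived. A later wave depends on newly made proteins and on secreted interferon, and includes antiviral genes, guanylate-binding proteins and effectors such as inducible nitric oxide synthase. UMI counts measure transcripts present at one moment, so that synthesis and decay cannot be told apart in them.

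Each genotype and time point was 1 sample, so no difference below has a replicate check and no test was run. Values are given as CPM, the UMIs of a gene for every 1000000 UMIs summed over the cells of a sample, and intervals are 95% intervals for counting error only. Ratios are log2 of the CPM at 8 h over the CPM at 2 h in Rad21-/- cells unless WT is named. The 2 h sample held 1248357 UMIs with a median of 5982.5 per cell, and the 8 h sample held 1734640 with a median of 7043. Because a share of cells with a transcript grows with depth, shares were also taken after each cell had been thinned to 3800 UMIs, which left 152 and 201 cells. Cells had been processed in library pools, 7 at 2 h and 8 at 8 h, none of which held both time points, so that pool and time cannot be told apart. Of these pools, 4 and 6 held at least 10 cells and were used for ranges between pools. The samples had 48 well barcodes in common, each in different pools, and no pool and barcode pair occurred more than once.

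The deleted gene was low at both time points. Rad21 was at 8.01 CPM (3.84 to 14.7, 10 UMIs) at 2 h and 6.92 CPM (3.57 to 12.1, 12 UMIs) at 8 h, against 50.9 and 34.1 CPM in the WT samples. A UMI of Rad21 was found in 5.43% and 5.41% of the Rad21-/- cells, or 5.26% and 1.49% of thinned cells. Of a list of 11 cohesin subunits, loaders and regulators, 9 had enough UMIs to be scored and 2 had not. None of the 9 differed by at least 2-fold. Over all scored genes 5.47% were higher and 4.56% lower, so a count of 0 among 9 says little about this list. Macrophage markers were present throughout, with Lyz2 (lysozyme) in 100% of cells at both times and Cd68, a lysosomal membrane protein, in 100% and 98.6%. Of the markers of other lineages, most were absent from the matrix or found in few cells. The main exceptions were Kit, a receptor of mast cells and progenitors, at 28.0 and 45.0 CPM in 17.9% and 29.7% of cells, and Ighm, the immunoglobulin heavy chain of B cells, which had a UMI in 45.1% of cells at 2 h and 41.9% at 8 h, at 156.2 and 153.9 CPM. Of the 5 B cell genes listed, only Ighm and Ms4a1, at 13.6 and 10.95 CPM, are in the matrix, and together they made up 0.0170% and 0.0165% of UMIs. The neutrophil gene Camp was at 0 UMIs at 2 h and 19 at 8 h, S100a8 was at 1 and 4, and the stromal collagen gene Col1a1 was at 0 in both. Mitochondrial transcripts made up 5.12% and 4.80% of UMIs.

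Rad21-/- macrophages shared many inducible transcripts at 2 h and 8 h, but at levels that often differed. Of the genes induced at least 4-fold in WT at 2 h, 101 were scored. All 101 were at least 2-fold above untreated Rad21-/- cells at 2 h, and 88 were at 8 h. Over all 8531 scored genes, 378 were at 2 h and 637 at 8 h. Acute-phase, antimicrobial and interferon-stimulated transcripts were far more abundant at 8 h. Most scored immediate-early regulators, some signalling inhibitors and a group of transcripts of resting macrophages were depleted. Of 20 NF-κB members and feedback regulators, 6 were lower and 3 higher. Genes with at least 50 UMIs over both samples were scored, and a scored gene was called when it differed by at least 2-fold. Of 8531 scored genes, 467 (5.47%) were higher at 8 h, 389 (4.56%) were lower, and 7675 lay between. At 4-fold, 109 were higher and 68 lower. The median over all scored genes was 0.0027 on the log2 scale. Together the genes called higher took 2.30% of all UMIs at 2 h and 7.96% at 8 h, and those called lower took 4.84% and 1.75%. Every 8 h pool lay above every 2 h pool for 400 genes (4.69% of those scored) and below for 348 (4.08%), which included 267 of the 467 and 222 of the 389 called genes.

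**Figure D1:**
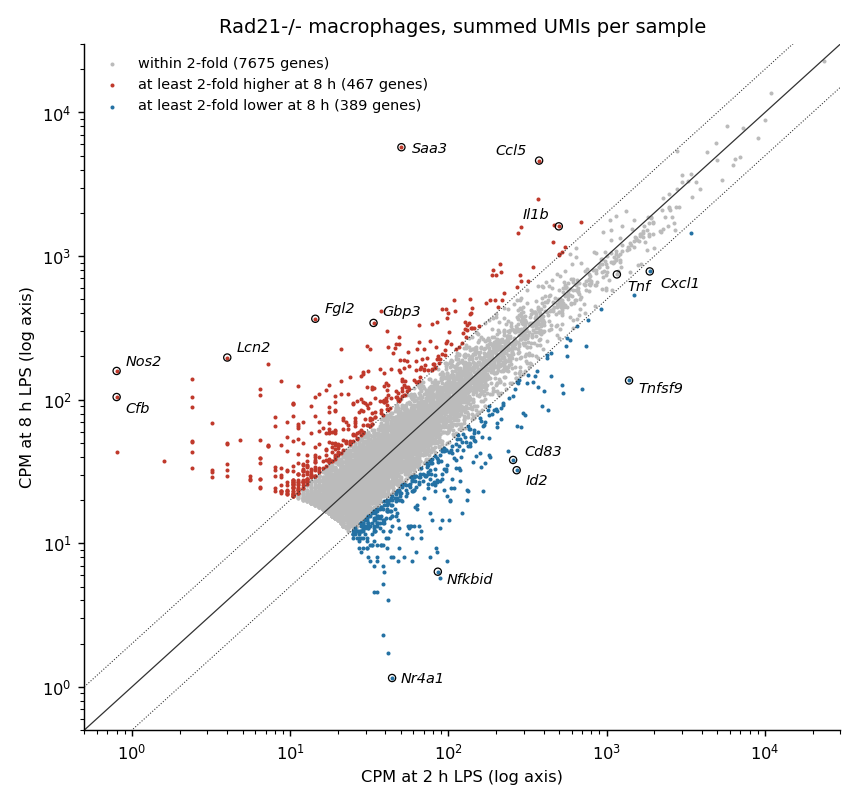
Summed CPM of each scored gene in Rad21-/- macrophages at 2 h of LPS (x axis) and 8 h (y axis), both on log scales, with the genes called higher or lower at 8 h coloured. Saa3, Ccl5 and Nos2 stand far above the diagonal and Tnfsf9, Nfkbid and Id2 below it, while 7675 genes lie within a factor of 2.

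Late effector genes had high ratios at 8 h. Of 23 listed acute-phase, antimicrobial and metabolic effectors, 19 had enough UMIs, 18 were higher at 8 h and none lower, with a median log2 ratio of 3.46 against 0.0027 for all scored genes. The median was 2.77 in thinned cells, below the 3.10 of the interferon-inducible GTPases there, and 4.10 and 4.22 without 1 or another of the 8 h pools. A member near 0 at 2 h was scored only if it was high at 8 h, so members that stayed low are missing from these values. Over all 23 members, whatever their counts, the list took 0.109% of UMIs at 2 h and 1.06% at 8 h. Saa3, an acute-phase apolipoprotein made by activated macrophages, was at 5.46 CPM in untreated Rad21-/- cells, 50.5 CPM (38.8 to 64.6) at 2 h and 5731 CPM (5619 to 5845) at 8 h, a log2 ratio of 6.83 (6.47 to 7.21). It was found in 11.4% of cells at 2 h and 100% at 8 h, and a single cell held 63.5% of its UMIs at 2 h. The 2 h pools ranged from 12.9 to 169.2 CPM and the 8 h pools from 3906 to 6682, so the groups of pools did not overlap. Its neighbour Saa2 had 0 UMIs at 2 h and 242 at 8 h (140 CPM), at least 58.1-fold higher when the 2 h sample is set at 3 counts. The Saa genes are close copies, and reads could have been split among them.

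Nos2 (chromosome 11, 78920787 to 78960226 in GRCm38) encodes inducible nitric oxide synthase, which makes nitric oxide from arginine. It was at 0.607 CPM untreated, 0.801 CPM at 2 h, from 1 UMI, and 159 CPM (140 to 178.4) at 8 h, from 275 UMIs, with a log2 ratio of 7.63 and a counting interval of 5.14 to 12.94. A UMI of Nos2 was found in 52.7% of cells at 8 h, or 34.8% after thinning. Because this share depends on depth, a cell without a UMI may still have held the transcript. Cfb, complement factor B, went from 1 UMI to 181 (7.03, 4.53 to 12.34) and was in 45.0% of cells at 8 h. Lcn2, a lipocalin that withholds iron from bacteria, was at 4.01 CPM at 2 h and 197 CPM at 8 h, with a log2 ratio of 5.62 (4.38 to 7.25), in 2.72% and 50.9% of cells. Slc7a2, the arginine transporter that feeds Nos2, was at 3.20 and 69.2 CPM (4.43, 3.04 to 6.33). Hp, haptoglobin, had 1 and 75 UMIs, and its pools overlapped because at least 1 of the 8 h pools had none.

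Outside that list, the largest ratios among genes with at least 100 UMIs included Fgl2, a fibrinogen-like prothrombinase, at 14.4 CPM at 2 h and 366 CPM at 8 h (4.67, 3.99 to 5.43), in 6.52% and 59.9% of cells. The transcript AW112010 was at 7.21 and 178.1 CPM (4.63, 3.68 to 5.77). Gm20547 was at 2.40 and 104 CPM and Ccdc146 at 2.40 and 88.8 CPM, from 3 UMIs each at 2 h, but Gm20547 overlaps Cfb and Ccdc146 overlaps Fgl2, so their reads may belong to those neighbours. Ccl5, a chemokine for T cells and monocytes, was the most abundant of the interferon-linked genes at 8 h, though not at 2 h. It stood at 8.50 CPM untreated, 374 CPM (341 to 410) at 2 h and 4624 CPM (4523 to 4726) at 8 h, a log2 ratio of 3.63 (3.49 to 3.77). Its pools lay at 333 to 414 CPM at 2 h and 3005 to 5307 at 8 h, and its share of cells went from 70.7% to 100%.

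Interferon-stimulated genes were higher at 8 h almost throughout. Of 30 listed antiviral and interferon signalling genes, 29 were scored, 25 were higher and none lower, with a median of 1.86, and all 30 together took 0.164% of UMIs in cells without LPS, 0.217% at 2 h and 0.751% at 8 h. All 9 scored members of the 13 interferon-inducible GTPases were higher, with a median of 2.61, or 2.10 at a minimum of 100 UMIs. The other 4 had too few UMIs, and a member near 0 at 2 h was scored only if it was high at 8 h. All 13 together took 0.0129% of UMIs without LPS, 0.0177% at 2 h and 0.106% at 8 h. Gbp3, a guanylate-binding protein that attacks pathogen vacuoles, was at 33.6 CPM (24.2 to 45.5) at 2 h and 342 CPM (315 to 371) at 8 h, a log2 ratio of 3.35 (2.89 to 3.84), in 17.4% and 83.8% of cells. Gbp2 was at 20.8 and 224 CPM (3.42, 2.85 to 4.06). Isg20, an antiviral exonuclease, was at 6.41 and 119 CPM (4.22, 3.21 to 5.45), and Ifit2, which blocks translation of viral RNA, at 30.4 and 236 CPM (2.95, 2.47 to 3.47). Mx1, an antiviral GTPase, had 3 and 90 UMIs, a ratio of 4.43 with a counting interval of 2.84 to 6.74.

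The interferon-β gene itself was hardly seen. Ifnb1 had 0, 2 and 0 UMIs at 0, 2 and 8 h in Rad21-/- cells, while the WT 2 h sample was at 45.9 CPM. Of 6 listed interferon-inducible chemokines, only 3 were scored, and 2 of them were higher at 8 h. The remaining scored member was Cxcl10, a ligand of CXCR3 on T cells. It was at 6.68 CPM untreated, 1114 CPM (1056 to 1174) at 2 h and 911 CPM (867 to 957) at 8 h (-0.29, -0.39 to -0.18), in 91.3% and 93.2% of cells, with overlapping pools. In the WT samples its log2 ratio was 0.84. Ccl12, a monocyte chemokine of the same list, was at 49.7 and 155.7 CPM (1.65, 1.25 to 2.07).

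Promoter windows of RefSeq genes (build GRCm38.p6, 250 bases before to 50 after an annotated start) were searched on both strands for 6 motifs, and 5596 of the 8531 scored genes had a window. The letters GAAANNGAA, the core of the interferon-stimulated response element (ISRE), occurred in 9.77% of these genes, in 20.9% of the 321 called higher and in 6.57% of the 289 called lower. They occurred in 17 of 26 called genes of the interferon lists (65.4%) and in 50 of 295 called higher outside them (16.9%). The κB letters GGANNTTCC were in 6.15% of all genes, 8.10% of those higher and 7.61% of those lower, and the CRE letters TGACGTCA in 3.70%, 3.12% and 3.81%. The AP-1 letters TGANTCA were in 6.29%, 10.3% and 9.34%, the GAS letters TTCNNNGAA in 8.04%, 9.97% and 5.88%, and the TATA box letters TATAAA in 9.19%, 15.6% and 10.4%. These are matches of letters with no test, a match is a description and not a bound site, and the κB, ISRE and GAS letters can overlap each other.

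Windows of 3 genes called higher are shown because they hold the ISRE letters. The Saa3 window lies on the minus strand at chr7:46715627-46715926 with the match in capitals starting 125 bases before the annotated start. The Phf11b window, of a PHD finger gene of the interferon response, lies on the minus strand at chr14:59341281-59341580 with the match starting 50 bases before. The Gbp3 window lies on the plus strand at chr3:142559794-142560093 and holds a pair of ISRE matches on the opposite strand, starting 44 and 38 bases before the start and printed as 1 run of capitals, and a TATA box match on the opposite strand 207 bases before.
Saa3: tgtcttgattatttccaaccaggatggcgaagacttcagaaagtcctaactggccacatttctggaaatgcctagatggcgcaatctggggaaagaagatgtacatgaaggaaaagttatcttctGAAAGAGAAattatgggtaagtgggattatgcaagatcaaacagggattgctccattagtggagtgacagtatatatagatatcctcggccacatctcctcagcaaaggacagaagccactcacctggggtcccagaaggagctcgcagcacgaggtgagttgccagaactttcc
Phf11b: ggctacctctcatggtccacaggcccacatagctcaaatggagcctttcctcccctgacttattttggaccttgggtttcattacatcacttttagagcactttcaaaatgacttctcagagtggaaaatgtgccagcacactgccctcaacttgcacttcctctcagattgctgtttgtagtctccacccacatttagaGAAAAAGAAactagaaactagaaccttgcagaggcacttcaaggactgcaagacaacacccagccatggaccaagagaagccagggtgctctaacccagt
Gbp3: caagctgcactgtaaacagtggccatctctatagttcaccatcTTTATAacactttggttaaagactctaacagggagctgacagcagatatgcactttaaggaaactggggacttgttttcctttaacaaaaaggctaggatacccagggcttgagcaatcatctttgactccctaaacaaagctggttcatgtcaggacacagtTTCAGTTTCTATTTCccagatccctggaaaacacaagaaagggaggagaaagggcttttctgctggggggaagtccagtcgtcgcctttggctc
Phf11b was at 8.81 CPM at 2 h and 135 CPM at 8 h, with a log2 ratio of 3.94 (3.07 to 4.96), and is 1 of several near-identical Phf11 genes.

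Shares of the lists were also taken cell by cell. The late effector list took a median of 0.0907% of a cell's UMIs at 2 h and 0.809% at 8 h, and all 222 cells at 8 h lay above the 90th percentile of the 2 h cells. Cells at 8 h still differed, from 0.422% at the 10th percentile to 2.09% at the 90th. Saa3 alone made up 53.85% of the UMIs of the list at 8 h and 4.61% at 2 h. Without Saa3, left out after the data were seen, the medians were 0.0888% and 0.443%, and 215 of 222 cells (96.85%) lay above the 2 h 90th percentile, while single members such as Nos2, Lcn2 and Cfb had no UMI in many cells. The interferon-stimulated list went from a median of 0.201% to 0.696% of a cell's UMIs, with 220 of 222 cells (99.1%) above the 2 h 90th percentile. The GTPase list was at 0 UMIs in 83 of 184 cells at 2 h and in 2 of 222 at 8 h.

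**Figure D2:**
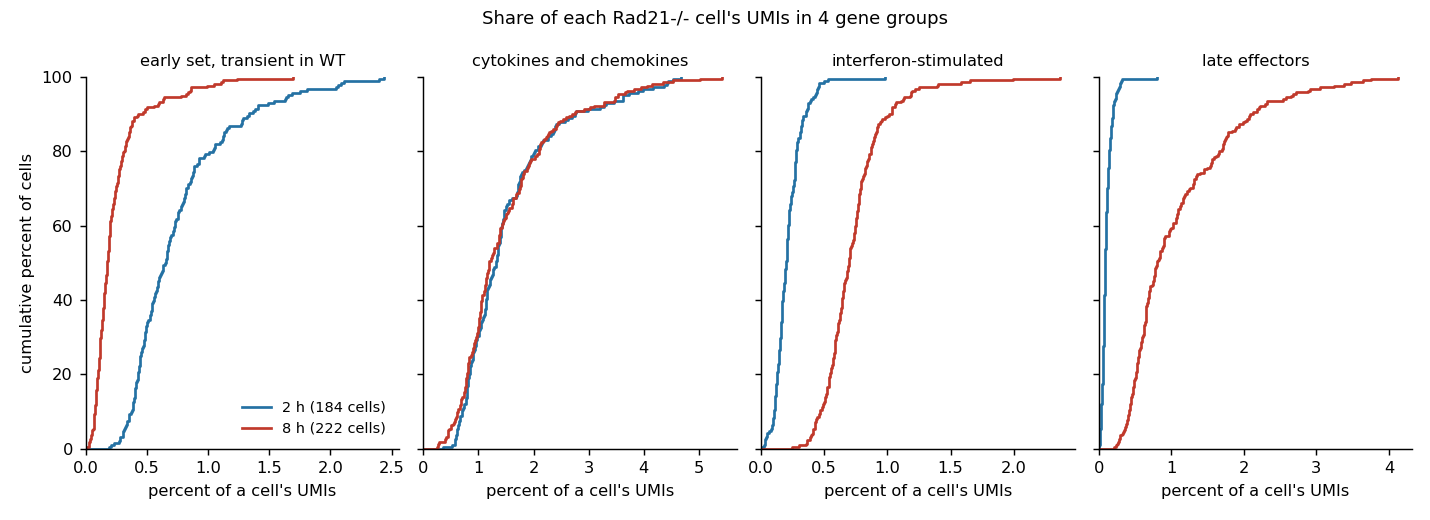
Cumulative percent of Rad21-/- cells (y axis) against the percent of a cell's UMIs in a group of genes (x axis), for 184 cells at 2 h in blue and 222 cells at 8 h in red, in 4 panels. The curves are apart for genes transient in WT (medians 0.652% and 0.179%), interferon-stimulated genes (0.201% and 0.696%) and late effectors (0.0907% and 0.809%), and run together for cytokines and chemokines (1.32% and 1.19%).

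A second view of onset used genes picked in WT samples. Late-induced genes were defined as at least 4-fold higher in WT at 8 h than untreated and less than 2-fold higher at 2 h, which gave 136 genes. In Rad21-/- cells 87 of them had enough UMIs and 49 had not. Of the 87, 67 were higher at 8 h than at 2 h and none lower. Their median log2 ratio was 2.14, and 85 lay above 0. A member near 0 at 2 h was scored only if it was high at 8 h, so members that stayed low are missing here. At a minimum of 1 UMI the median was 2.00. Over all 136 members the set took 0.237% of UMIs without LPS, 0.345% after 2 h and 1.14% after 8 h. The WT median over the 135 scored there was 2.60, which is not independent because WT samples chose the set. Among the members that differed little were 3 picked after their values were seen. Mt2, a metallothionein that binds zinc, was at 431 CPM at 2 h and 304 CPM at 8 h (-0.50, -0.68 to -0.33) against a WT ratio of 2.89. Il4ra, a chain of the interleukin 4 receptor, was at 53.7 and 54.2 CPM (0.01, -0.45 to 0.49) against 3.85 in WT. Arel1, a ubiquitin ligase, was at 28.8 and 26.5 CPM (-0.12, -0.78 to 0.55) against 1.75 in WT.

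Immediate-early transcripts were lower at 8 h. Of 18 listed members in the matrix, 14 were scored, 11 were lower at 8 h and none higher, with a median of -1.48, and the 18 together took 0.0441% of UMIs without LPS, 0.241% after 2 h and 0.107% after 8 h. A member near 0 at 8 h was scored only if it was high at 2 h. At a minimum of 20 UMIs the median was -1.74. For only 5 of the 14 did every 8 h pool lie below every 2 h pool. At 2 h, 12 of the 14 were at least 2-fold above untreated Rad21-/- cells, and at 8 h 8 of the 14 were. Over all 8531 scored genes, 637 were at 8 h. Nr4a1, an orphan nuclear receptor induced within minutes, was at 0.607 CPM untreated, 44.1 CPM (33.2 to 57.3) at 2 h and 1.15 CPM at 8 h from 2 UMIs (-5.26, -8.34 to -3.33). Egr2, a zinc finger factor, had 28 UMIs at 2 h and 0 at 8 h, at least 13.0-fold lower with the 8 h sample set at 3 counts, although 28 UMIs lie under the minimum for a call. Junb, a subunit of AP-1, was at 42.5, 528 (488 to 570) and 111 CPM (95.6 to 128) at 0, 2 and 8 h (-2.25, -2.49 to -2.02), in 90.8% and 50% of cells. Klf2, a repressor of macrophage activation, was at 41.9, 58.5 and 7.49 CPM (-2.96, -3.94 to -2.10), below its untreated level at 8 h. Dusp1, a phosphatase that inactivates MAP kinases, was at 4.25, 134 and 23.1 CPM (-2.54, -3.07 to -2.03), in 39.7% and 15.3% of cells.

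**Figure D3:**
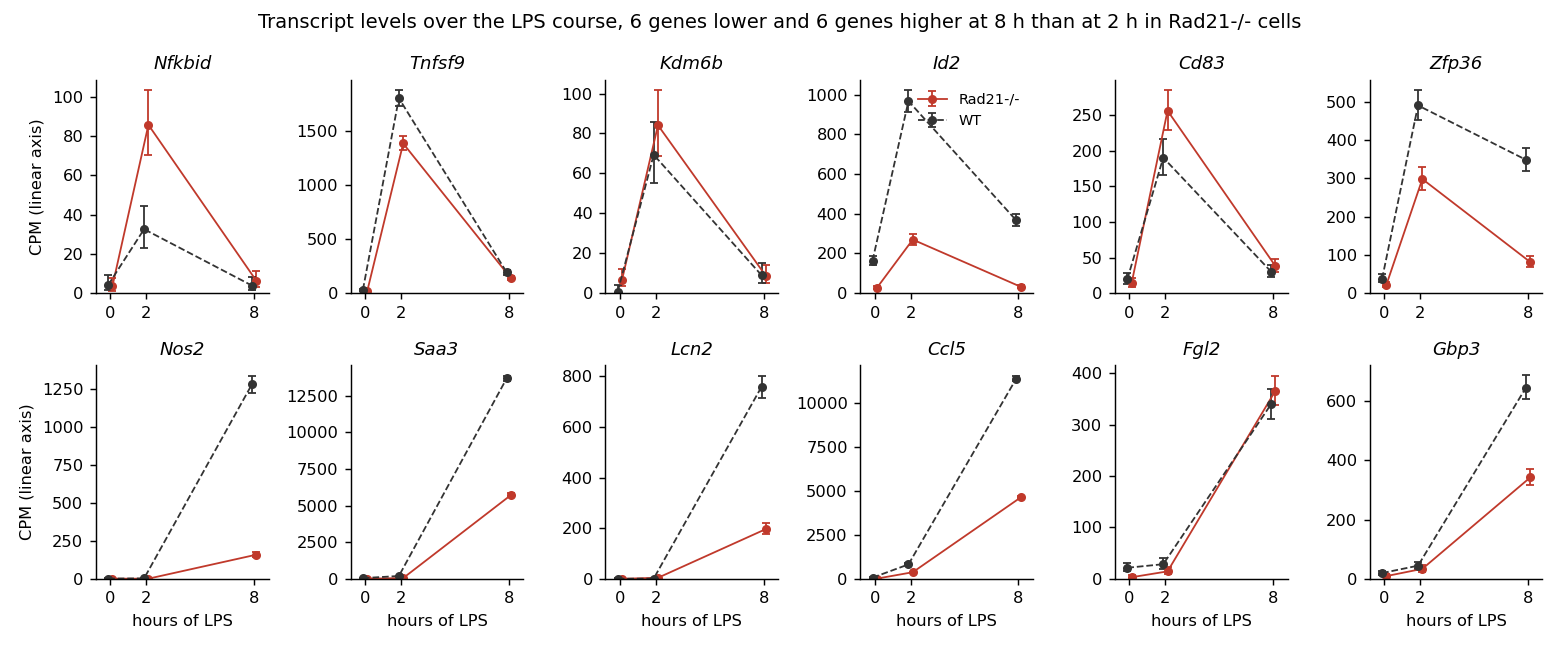
CPM on a linear axis of 12 genes untreated and after 2 and 8 h of LPS in Rad21-/- (red, solid) and WT macrophages (dark, dashed), 1 sample per point with bars for 95% counting intervals. Nfkbid, Tnfsf9, Kdm6b, Id2, Cd83 and Zfp36 in the upper row are highest at 2 h, and Nos2, Saa3, Lcn2, Ccl5, Fgl2 and Gbp3 in the lower row are highest at 8 h, as Saa3 at 50.5 and 5731 CPM in Rad21-/- cells.

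The same held for genes that WT cells induced early and then lost. Early-induced genes were those at least 4-fold higher at 2 h than untreated in WT, and 101 of them had enough UMIs in Rad21-/- cells and 12 had not. Of the 101, 24 were higher at 8 h and 34 lower, with a median of -0.49. Of the 26 that were transient in WT, with an 8 h level at least 4-fold below the 2 h level, 17 were scored and 15 were lower in Rad21-/- cells with none higher, a median of -2.13. A member near 0 at 8 h was scored only if it was high at 2 h, and the 9 not scored are missing from these values. At a minimum of 1 UMI the median was -2.3. The transient set took 0.0489% of UMIs without LPS, 0.739% after 2 h and 0.229% after 8 h over all 26 members. Of the 17 partly kept in WT, 16 were scored, 11 were lower and none higher, with a median of -1.28. Of the 70 sustained in WT, 68 were scored, 24 were higher and 8 lower, with a median of 0.12, and this set went from 2.19% to 3.83% of UMIs. Saa3 and Ccl5 belong to this sustained set, and their increases, given above, made up a large part of that rise. Saa3 is also in the late effector list. Of the 222 cells at 8 h, 194 (87.4%) had a share of transient transcripts below the 10th percentile of the 2 h cells.

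Tnfsf9 (chromosome 17, 57105287 to 57107758 in GRCm38), a TNF family ligand of the costimulatory receptor CD137, had the most UMIs among the genes with the lowest ratios. It was at 19.4 CPM untreated, 1385 CPM (1320 to 1452) at 2 h and 136 CPM (119 to 155) at 8 h, 10.2-fold lower (-3.35, -3.55 to -3.15). The 2 h pools ranged from 1221 to 1644 CPM and the 8 h pools from 113.4 to 231, with no overlap, and the share of cells went from 96.7% to 51.8%. Nfkbid, an atypical inhibitor of NF-κB, was at 3.64, 85.7 (70.2 to 104) and 6.34 CPM (3.17 to 11.3) at 0, 2 and 8 h (-3.76, -4.80 to -2.86), so the 8 h interval held the untreated value. Kdm6b, a histone H3K27 demethylase, was at 6.68, 84.1 and 8.65 CPM (-3.28, -4.17 to -2.49). Id2, which blocks helix-loop-helix factors, was at 26.1, 270 and 32.3 CPM (-3.06, -3.50 to -2.65). Gem, a small GTPase, was at 1.82, 88.1 and 12.7 CPM (-2.80, -3.53 to -2.13), and Cd83, a surface protein of activated antigen-presenting cells, at 13.96, 256 and 38.05 CPM (-2.75, -3.16 to -2.37).

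Regulators of the LPS response lay on both sides. Among 20 listed NF-κB members and feedback regulators, all scored, 6 were lower at 8 h and 3 higher, with a median of -0.43. Nfkbiz, a nuclear cofactor of NF-κB that drives secondary genes, was at 4.85, 524 and 126 CPM at 0, 2 and 8 h (-2.06, -2.29 to -1.84). The NF-κB subunit Rel was at 23.7, 128.97 and 50.7 CPM (-1.35, -1.74 to -0.96), while the subunit Nfkb2 was at 23.7, 70.5 and 162.6 CPM (1.21, 0.86 to 1.57). Traf1, a TNF receptor adaptor, was at 9.71, 55.3 and 216 CPM (1.96, 1.59 to 2.36). Irak3, a pseudokinase that restrains TLR signalling, was at 7.28, 10.4 and 94.5 CPM (3.18, 2.37 to 4.12), in 6.52% and 43.2% of cells.

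Of 13 listed factors that bind mRNA or set its half-life, 12 were scored, 4 were lower at 8 h and none higher, with a median of -0.59 and a highest ratio of 0.72. Zfp36, which binds AU-rich elements and removes cytokine mRNAs, was at 21.8 CPM untreated, 298 CPM (268 to 330) at 2 h and 81.3 CPM (68.4 to 95.9) at 8 h (-1.87, -2.16 to -1.59). Its pools overlapped, at 148.1 to 519 CPM at 2 h and 38.5 to 176 at 8 h. Its relative Zfp36l1 was at 56.1 and 12.7 CPM (-2.14, -2.91 to -1.44). Btg1, an antiproliferative factor that recruits deadenylase, was at 199 and 86.5 CPM (-1.20, -1.50 to -0.90), and came to -0.84 without 1 of the 2 h pools.

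Windows of 2 genes called lower are shown because they hold the CRE letters, read by factors of the CREB and ATF family. Of the Nfkbid windows, the one on the plus strand at chr7:30422156-30422455 has the match in capitals starting 51 bases before the annotated start. The Dusp1 window lies on the minus strand at chr17:26508423-26508722, with the match starting 143 bases before.
Nfkbid: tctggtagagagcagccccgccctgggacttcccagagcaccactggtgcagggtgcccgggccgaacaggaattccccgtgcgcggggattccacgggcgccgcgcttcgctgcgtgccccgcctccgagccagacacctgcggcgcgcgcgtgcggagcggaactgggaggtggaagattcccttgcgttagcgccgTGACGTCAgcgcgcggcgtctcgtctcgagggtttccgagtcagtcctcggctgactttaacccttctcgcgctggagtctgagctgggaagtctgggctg
Dusp1: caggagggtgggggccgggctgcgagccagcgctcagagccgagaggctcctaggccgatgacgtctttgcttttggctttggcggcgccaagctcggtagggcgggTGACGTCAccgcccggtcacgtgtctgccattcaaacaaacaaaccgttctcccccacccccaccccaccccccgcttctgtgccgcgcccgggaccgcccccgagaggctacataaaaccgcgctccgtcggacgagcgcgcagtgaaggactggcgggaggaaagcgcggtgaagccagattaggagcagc
The CRE share among all genes called lower, 3.81%, was close to the 3.70% of all genes.

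Several of the lowest ratios belonged to genes that LPS had not induced. Rab3il1, a Rab exchange factor, was at 123.2 CPM untreated, 88.9 CPM (73.1 to 107) at 2 h and 5.76 CPM (2.76 to 10.6) at 8 h, the lowest ratio among genes with at least 100 UMIs (-3.95, -5.05 to -3.01). Cd28, a costimulatory receptor, was at 75.9, 98.5 and 7.49 CPM (-3.72, -4.67 to -2.89), and Hpgd, which degrades prostaglandins, at 111, 76.9 and 8.07 CPM (-3.25, -4.18 to -2.44). Cxcr4, the chemokine receptor that retains cells in marrow, was at 90.4, 83.3 and 9.22 CPM (-3.17, -4.03 to -2.41). The exchange factor Rasgrp3 was at 169.3, 121.8 and 16.1 CPM and the ceramide kinase Cerk at 174, 131.4 and 20.2 CPM. None of these genes had overlapping pools. In each of them the 2 h value was within a factor of 2 of the untreated value, and only the 8 h value was far from it.

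Cytokine and chemokine transcripts as a list took about the same share of UMIs at both times. Of 21 in the matrix, 16 were scored, 5 were higher at 8 h and 3 lower, with a median of -0.01, and the list took 1.50% of UMIs at 2 h and 1.46% at 8 h. Tnf was at 3.03 CPM untreated, 1160 CPM (1101 to 1221) at 2 h and 745 CPM (705 to 787) at 8 h (-0.64, -0.75 to -0.53), with pools of 802 to 1418 and 414 to 953 CPM that overlapped. It remained in 98.9% and 88.3% of cells. The neutrophil chemokine Cxcl1 was at 0, 1871 and 782 CPM (-1.26, -1.36 to -1.16), and the monocyte chemokine Ccl4 at 71.6, 2700 and 1526 CPM (-0.82, -0.90 to -0.75).

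Il1b, the pyrogenic cytokine released after inflammasome cleavage, was higher at 8 h, at 0, 498 (460 to 539) and 1611 CPM (1552 to 1672) (1.69, 1.57 to 1.82). Its pools did not overlap, with 372 to 682 CPM at 2 h and 1279 to 1987 at 8 h, and its share of cells went from 75% to 95.9%. Il6 was at 7.21 and 48.4 CPM (2.75, 1.75 to 3.93), in 4.35% and 23.4% of cells. Il12b, the p40 chain of interleukins 12 and 23, was at 30.4 and 122.8 CPM (2.01, 1.51 to 2.55). Its share of cells was 16.8% and 25.7%, or 7.89% and 18.4% after thinning, and its pools overlapped. Il1a was at 11.2 and 26.5 CPM (1.24, 0.35 to 2.22), and its ratio was 0.31 in thinned cells. Cxcl3 was at 51.3 and 105.5 CPM (1.04, 0.62 to 1.48), but 1 cell held 25.1% of its UMIs at 8 h and the ratio was 0.07 without 1 of the 8 h pools.

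**Figure D4:**
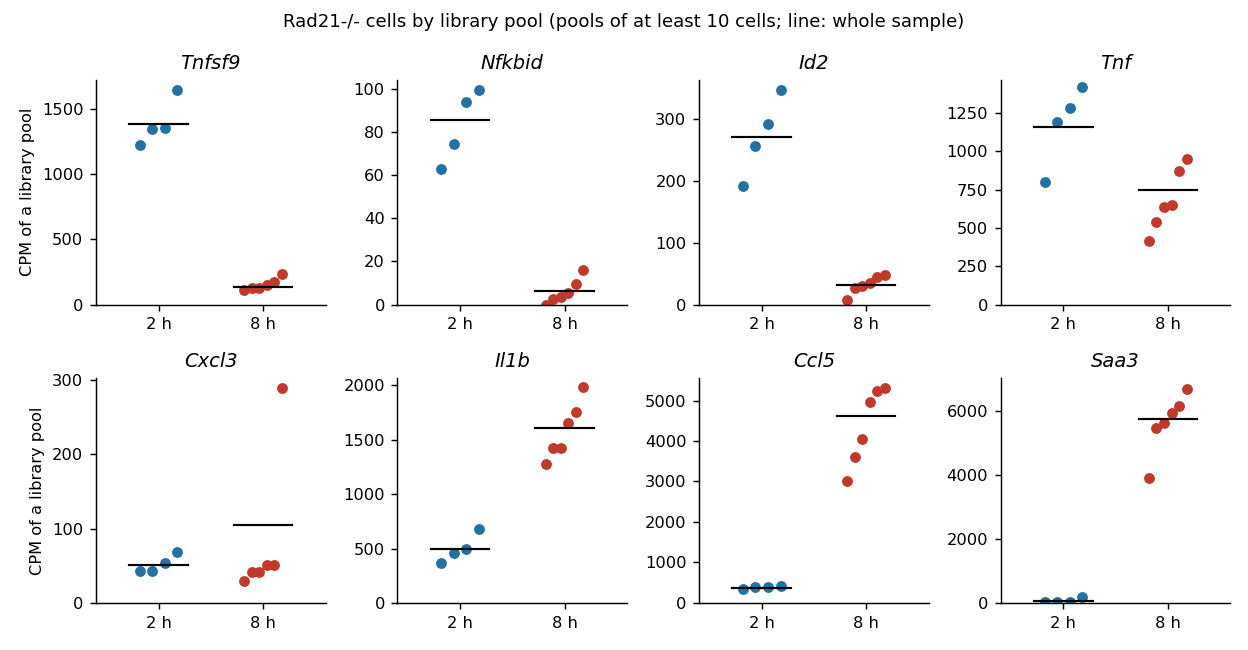
CPM on linear axes of 8 genes in each library pool with at least 10 Rad21-/- cells, 4 pools at 2 h (blue) and 6 at 8 h (red), with a line for the whole sample, where pools are technical parts of 1 sample. The pools are apart for Saa3, Ccl5, Il1b, Tnfsf9, Nfkbid and Id2 and overlap for Cxcl3 and Tnf, where the 2 h pools run from 802 to 1418 CPM and the 8 h pools from 414 to 953.

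The study took 6 classes of inducible genes from earlier work and kept members detected in at least 20% of its cells, a filter that used these data. Class A1+2 had 38 scored of 43 genes, with 18 lower at 8 h, none higher and a median of -0.95. Class B had 25 scored with 3 higher and a median of -0.11, and class C had 76 scored, 21 higher and 18 lower, with a median of 0.0041. In class D 28 of 58 scored genes were higher and 1 lower (median 0.97), in class E 40 of 66 were higher and 1 lower (1.43), and in class F 40 of 53 were higher and none lower (1.59). Of the 13 genes the study probed by single-molecule RNA-FISH, 11 were scored, 4 were higher and 1 lower. Cd40, a costimulatory receptor, was at 183 and 498 CPM (1.44, 1.23 to 1.66), and Ifit1 at 33.6 and 120 CPM (1.83, 1.35 to 2.35). Atf3, a repressor of cytokine genes, was at 33.4, 319 and 148.2 CPM (-1.11, -1.34 to -0.88) and came to -0.98 without 1 of the 2 h pools. Peli1, a ubiquitin ligase of TLR signalling, was at 52.9 and 40.9 CPM (-0.37, -0.87 to 0.14), and Sertad2, a transcriptional coregulator, at 32.0 and 20.8 CPM (-0.63, -1.32 to 0.06), both with intervals that include 0.

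Peptide loading genes for class I presentation and checkpoint ligands were among the genes higher at 8 h. Of 18 listed antigen presentation genes, 16 were scored, 7 were higher and 1 lower, with a median of 0.40. Left-out pools moved this median, to 1.35 without 1 of the 2 h pools and to 1.23 and 1.10 without 1 or another of the 8 h pools. The median was 1.39 at a minimum of 100 UMIs, but 0.18 at 20 and 0.16 at 1. Tap1, the peptide transporter, was at 13.6 and 89.9 CPM (2.72, 2.00 to 3.54), and Psmb10, an immunoproteasome subunit, at 96.1 and 426 CPM (2.15, 1.87 to 2.44). Cd274, the checkpoint ligand PD-L1, was at 14.4 and 104 CPM (2.85, 2.15 to 3.63). The class II gene H2-Aa was at 27.2 and 10.95 CPM (-1.31, -2.21 to -0.46), yet 1 cell held 52.9% of its UMIs at 2 h, and the ratio was -0.50 without 1 of the 2 h pools and 0.18 in thinned cells.

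Macrophage identity genes leaned lower at 8 h, with exceptions. Of 18 scored among 20, 13 had a ratio below 0 and 5 above. By the 2-fold call 3 were higher at 8 h and 5 lower, with a median of -0.70. Over all 20 members the list took 1.52% of UMIs at 2 h and 1.15% at 8 h. Adgre1, which encodes F4/80, was at 175, 196 and 492 CPM at 0, 2 and 8 h (1.33, 1.12 to 1.54), and Cd14, the LPS coreceptor, at 139, 502 and 1026 CPM (1.03, 0.90 to 1.16), with a ratio of 0.99 without any 1 of 3 pools. The mannose receptor Mrc1 was at 348, 352 and 146 CPM (-1.27, -1.50 to -1.04), and Trem2, a lipid receptor, at 914, 918 and 430 CPM (-1.09, -1.23 to -0.96). Mef2c, a transcription factor of microglia and macrophages, was at 61.7 and 17.9 CPM (-1.79, -2.44 to -1.17).

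Metabolic lists had smaller ratios. All 14 cholesterol synthesis and transport genes were scored and 4 were higher at 8 h, with a median of 0.57. Over the 9 that were also scored in WT the medians were 0.62 in Rad21-/- and -0.24 in WT. Sqle, squalene epoxidase, was at 18.4 and 49.6 CPM (1.43, 0.75 to 2.16), with a WT ratio of -0.99. Of 16 glycolysis genes, 2 were higher, with a median of 0.38. Hk2, hexokinase 2, was at 17.6 and 58.8 CPM (1.74, 1.06 to 2.47), and Pfkfb3, which makes the activator of phosphofructokinase, at 6.41 and 39.2 CPM (2.61, 1.55 to 3.88). The housekeeping gene Actb was at 4927 and 6111 CPM (0.31). None of the 14 scored mitochondrial, 81 scored ribosomal protein and 6 scored heat shock and stress genes was called in either direction. Among 8 scored of 20 cell cycle genes 2 were lower, Ccnd1 (cyclin D1) at 33.6 and 4.61 CPM (-2.87, -4.17 to -1.76) and the kinase inhibitor Cdkn1a at 740 and 236 CPM (-1.65, -1.82 to -1.48).

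**Figure D5:**
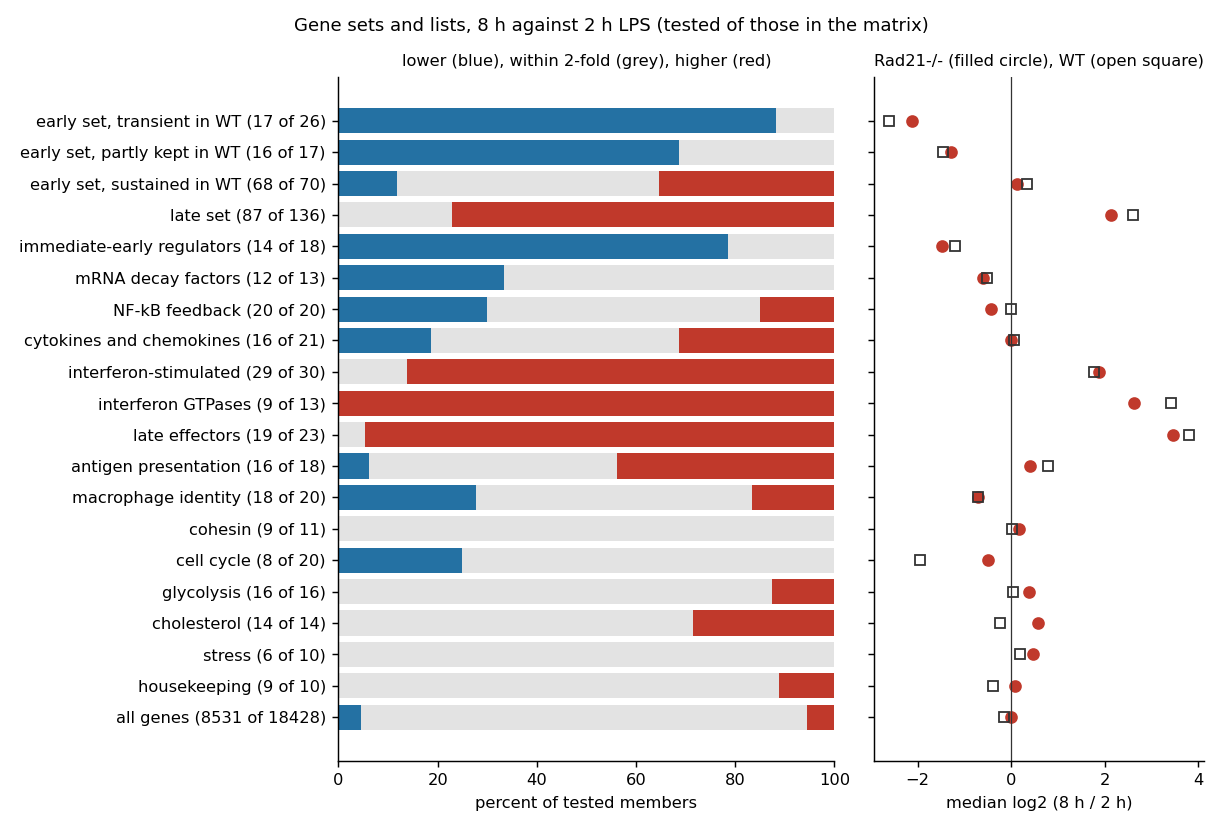
For each gene set or list, the left panel gives the percent of scored members that were at least 2-fold lower (blue), within 2-fold (grey) or at least 2-fold higher (red) at 8 h than at 2 h in Rad21-/- cells, and the right panel gives the median log2 ratio in Rad21-/- (filled circles) and WT (open squares). Late effector, GTPase and interferon lists have Rad21-/- medians of 3.46, 2.61 and 1.86, and the transient and immediate-early sets -2.13 and -1.48.

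Set beside the same interval in WT cells, part of the calls were shared and some sizes were far apart. In WT, 7808 genes were scored, 570 (7.30%) were higher at 8 h and 766 (9.81%) lower. Of 7389 genes scored in both genotypes, 242 were higher in both, 59.0% of the 410 called in Rad21-/- and 52.2% of the 464 called in WT, and 200 were lower in both, 68.3% of 293 and 29.4% of 680. Within a time point the genotypes had pools in common, 6 of the 7 Rad21-/- pools at 2 h and all 8 at 8 h. Differences between the genotypes could not be tested with 1 sample each, and wells over 25000 UMIs, left out here, had held 45.5% of UMIs in the WT 2 h sample and 11.9% in the Rad21-/- 2 h sample. Of the genes described above, Tnf had a WT ratio of -2.04, with 3058 CPM at 2 h and 744 at 8 h, against -0.64. Dusp1 had -0.59 in WT against -2.54, and Zfp36 -0.49 against -1.87, while Tnfsf9 had -3.24 against -3.35 and Il1b 1.74 against 1.69. Nos2 reached 1280 CPM in WT at 8 h against 159 CPM.

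Opposite calls were rare, but a gene had to be called in both genotypes to count, and most genes were not. Only 4 of the 7389 genes were called in opposite directions, Bcl3 and Cd69 from the lists and, named after their values were seen, Zyx (a focal adhesion protein, -1.46 against 1.83 in WT) and Sox6 (a transcription factor, 1.08 against -1.19). Bcl3, an atypical IκB protein that binds NF-κB p50, was at 19.4, 122.6 and 50.7 CPM in Rad21-/- cells (-1.27, -1.67 to -0.88) and at 10.4, 56.8 and 118 CPM in WT (1.05). The 2 h pools of Bcl3 ran from 78.7 to 155 CPM and the 8 h pools from 14.1 to 73.9, without overlap. Cd69, an early activation receptor, was at 0, 136.98 and 62.3 CPM in Rad21-/- cells (-1.14, -1.50 to -0.78) and at 2.08, 30.9 and 131.8 CPM in WT (2.09). Its Rad21-/- pools overlapped, at 74.7 to 181 and 47.6 to 84.4 CPM, and its ratio was -0.98 without 1 of the 2 h pools.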

How the data were processed

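Single bone marrow-derived macrophages had been sorted into wells and processed by MARS-seq, and the authors deposited raw UMI counts for each gene in each cell. They mapped reads with GEMTools 1.7.0 to GRCm38.p4 with Gencode M8, left out wells in which spike-in reads exceeded 15% or mapped reads fell short of 60%, and merged UMIs within an edit distance of 2. The matrix held 18428 symbols, and 1 symbol on 2 rows was summed. All columns were mapped to a sample, and 29 listed genes were absent.

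UMIs were summed per sample over cells with at most 25000 UMIs and divided by the sample's total to give CPM. Intervals at 95% were exact Poisson for CPM, Clopper-Pearson for shares and conditional binomial for log2 ratios. A count of 0 was set at 3 counts as a bound. No test was run, since each group was 1 sample, and no doublet caller was used on sorted cells. Named genes were the 15 highest and 15 lowest ratios among genes with at least 100 UMIs, up to 5 members per list and direction, the smRNA-FISH genes and Rad21. The members and lists were chosen with earlier results of these data known. Genes were matched by symbol to RefSeq GRCm38.p6, which held 16122 of the symbols and 158 of the 168 named genes. The steps were tested on simulated data. Python 3.11.15, numpy 2.4.6, pandas 2.3.3, scipy 1.17.1 and matplotlib 3.10.9 were used. Alternatives were thinning to 3800 UMIs per cell, other scalings, equal weights for cells or pools, all wells, other minimum counts and folds, 1 added UMI and leaving out each pool.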

Additional observations from a re-analysis of the deposited data

Results flagged for a closer look

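Both genes below were called in opposite directions in the 2 genotypes, at least 2-fold lower at 8 h than at 2 h in Rad21-/- cells and at least 2-fold higher in WT cells. The difference between the genotypes was not tested, because each genotype and time point was 1 sample. Bcl3 had a log2 ratio of -1.27 in Rad21-/- cells, from 122.6 and 50.7 CPM, and 1.05 in WT cells, from 56.8 and 118 CPM. Cd69 had a log2 ratio of -1.14 in Rad21-/- cells, from 136.98 and 62.3 CPM, and 2.09 in WT cells, from 30.9 and 131.8 CPM. For Bcl3 and for Cd69 the 2 h level was higher in Rad21-/- cells than in WT cells and the 8 h level was lower. The 2 h and 8 h samples were in different library pools, while at each time most Rad21-/- pools also held WT cells (6 of 7 at 2 h and all 8 at 8 h), and the part of pools in these values was not tested.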

How the results depend on the processing

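The number of genes called depended most on the minimum count and the fold. The 467 genes higher at 8 h became 870 at a minimum of 20 UMIs, 295 at 100, 1805 at 1 and 109 at 4-fold, and the 389 lower became 823, 218, 1836 and 68. Thinned cells gave 677 higher and 546 lower, and all wells kept gave 588 and 410. Leaving out each pool in turn gave 420 to 527 higher and 335 to 432 lower. The median of the early-induced set, -0.49, was -0.57 with each cell weighted equally and -0.64 at a minimum of 1 UMI, and -0.58 to -0.40 when pools were left out. That of the late-induced set, 2.14, was 2.00 at a minimum of 1 UMI and 2.02 to 2.27 when pools were left out. The log2 ratio of H2-Aa reversed to 0.18 in thinned cells. Of 91 named genes called, 90 kept their sign in the 22 settings that give a value for a single gene and 81 stayed at least 2-fold. The rule for naming genes favoured large ratios, so these counts do not speak for all called genes. Of the medians of 27 lists and sets, 6 changed sign in at least 1 of 25 settings, all of them between -0.12 and 0.12 as reported (the mitochondrial, housekeeping, cytokine and chemokine, class B and class C lists and the early set sustained in WT). The median of the interferon-inducible chemokines, 1.65 over only 3 scored genes, was 2.32 at a minimum of 20 UMIs. Shares of cells with a UMI lay outside their counting interval in 273 of 336 cases after thinning and in 321 when 2 UMIs were required. The causes of these shifts were not tested. No paired analysis was possible because each group was 1 sample with no replicate number. Depth limits genes with few UMIs, as 1 UMI was worth 0.801 CPM at 2 h and 0.576 CPM at 8 h.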

Other observations

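Some gene families outside the lists were picked after their values were seen and are given as descriptions. Of 46 scored proteasome subunit genes, 12 were higher at 8 h and none lower, with a median log2 ratio of 0.60. Besides the interferon-inducible subunits they included Psma5, a subunit of the constitutive core, at 60.9 and 136.6 CPM. Of 9 scored dual-specificity phosphatases, which switch off MAP kinases, 5 were lower and none higher, with a median of -1.02. Dusp2 was at 146.6 and 51.3 CPM and Dusp3 at 179.4 and 78.4 CPM. All 4 Bcl2a1 genes, near-identical copies of a survival factor among which reads may be split, were higher, Bcl2a1a at 48.9 and 272 CPM. Of 8 scored cathepsin genes, lysosomal proteases, none was called, and their median was -0.47.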
